A study of Mus musculus with 2 samples.

Results

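L1, NCAM and contactin proteins are cell adhesion molecules of neurons and glia that belong to the immunoglobulin superfamily. The genes described here are the 4 members of the L1 family (Chl1, L1cam, Nrcam and Nfasc), both NCAM genes (Ncam1 and Ncam2) and the contactins Cntn1 and Cntn2. Every probe whose single gene symbol in the platform annotation was one of these 8 names was taken, which gave 26 of the 45281 probes on the array. All 8 genes had at least 1 probe, among 19057 genes that the annotation names. The group was selected on the measured difference of Chl1 between these same arrays, which is therefore given as a description, as are the other differences of that contrast.

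L1 family proteins span the membrane and bind ankyrin inside the cell, which ties them to the spectrin skeleton of the axon. Contactins lack a cytoplasmic part, are held by a lipid anchor and act with transmembrane partners such as the Caspr proteins. The protein of Ncam1 carries polysialic acid. In the hippocampus, L1, NCAM and contactin molecules are known for roles in axon growth, in the axon initial segment and node of Ranvier, and in synaptic plasticity.

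The CeCl3 array held hippocampal RNA labelled as from male ICR mice, an outbred stock, that were given cerium chloride by mouth into the stomach each day for 90 days. The control array held hippocampal RNA labelled as from male ICR mice given purified water, although its signal of Xist, given below, goes against the label of sex. The label of the treated sample names 0.5, 1 and 2 mg per kg of body weight together, so the dose or mix it holds is unknown, and so is the number of mice behind either array. The study used 300 mice, 75 in each of 4 groups, labelled with an age of 4 weeks, which cannot be the age at the end of dosing, and its subject was learning and memory together with the hippocampal expression profile.

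With 1 array per group the differences could not be checked on replicates or tested across samples. Precision is limited by the number of arrays, and all intervals cover only the spread between beads of a probe within an array. The arrays lay on different BeadChips, so BeadChip and treatment cannot be told apart. The detection threshold was a p-value of 0.01, which 17433 probes met on the CeCl3 array, against 16434 on the control array. Both samples are labelled male, yet 0 of the 4 probes of Xist, which is expressed from the inactive X chromosome of female cells, were detected on the CeCl3 array, against all 4 on the control array. The Y-linked gene Eif2s3y was detected on the CeCl3 array alone, by 1 of its 2 probes, and no probe of the Y-linked genes Uty and Kdm5d was detected on either array. The part of this contrast in the results below was not tested. Of the neuronal markers Snap25, Tubb3 and Nefl, which neurons express strongly, 0 had a detected probe, whereas Syt1, Eno2, Stmn2 and Rbfox3 were detected on both arrays. A probe without signal therefore says nothing about the presence of its gene.

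Of the 26 member probes, 13 were detected on at least 1 array, 12 of them on both, and the other 13 on neither. The detected probes covered 7 genes. Over the whole array, 18087 of 45281 probes were detected on at least 1 array and 15780 on both. Member probes designed on RefSeq transcripts were detected in 12 of 20 cases, and those designed on cDNA clones in 1 of 6. The detected shares of all RefSeq and cDNA clone probes were not computed, so this split is not a result about the members. Within each gene, probes are numbered from the brightest down. Signals are given as the deposited intensity with its standard error (SE) over beads, and differences as CeCl3 minus control on the log2 scale after background correction and normalization. That correction adds an offset of 16, which draws the differences of dim probes towards 0.

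**Figure D1:**
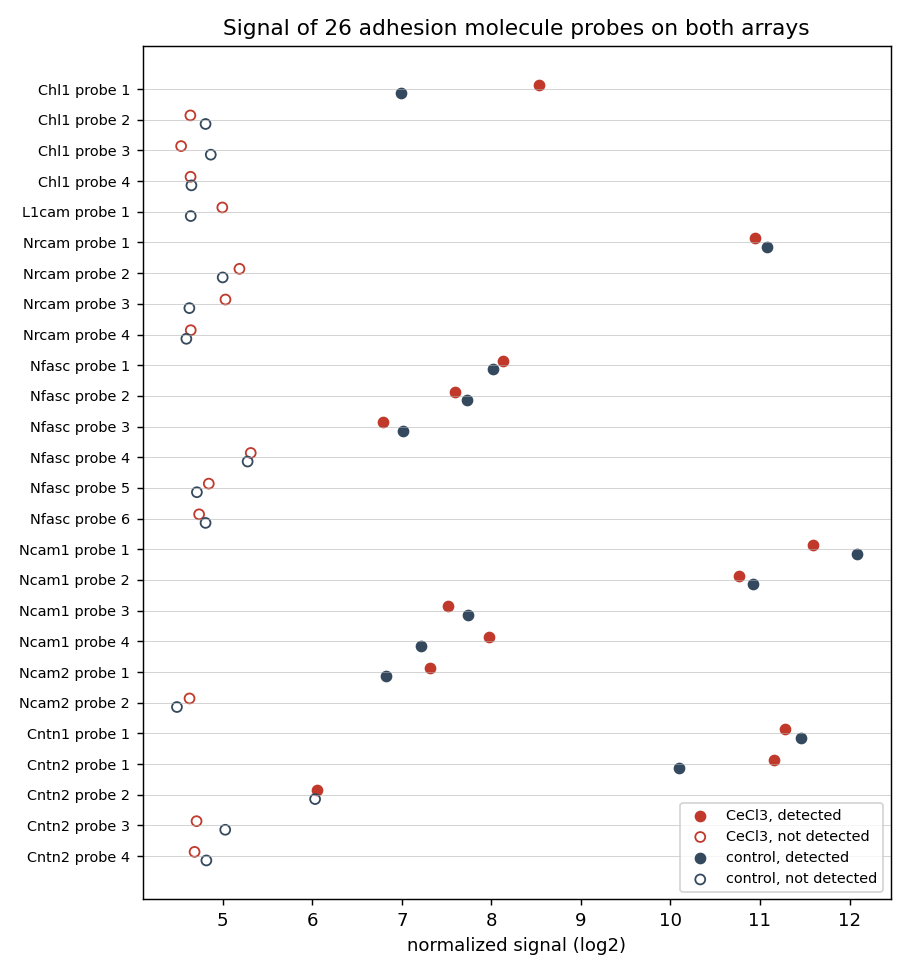
Normalized log2 signal of all 26 member probes, with the CeCl3 array (red, upper point) and the control array (dark blue, lower point) in each row; filled points were detected (p-value under 0.01). Chl1 probe 1 and Cntn2 probe 1 show the widest gaps, and 13 probes lie at the dim end on both arrays.

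Across the 13 detected probes, 2 were higher on the CeCl3 array by 2-fold or more and 0 were lower by as much. Among all 18087 probes detected on at least 1 array, 4.51% were higher by 2-fold or more and 2.14% lower, shares that move with the processing. Both member probes were among the 12 detected on both arrays, and of all 15780 probes so detected 0.894% were higher and 0.488% lower by 2-fold or more. The higher probes were the brightest ones of Chl1 and Cntn2, and Chl1 was known to be high when the genes were grouped, so the count is a description. The median difference of the 13 probes was -0.13, against -0.01 over all detected probes. With 1 probe per gene, the brightest, 4 genes lay above 0 and 3 below, and the median was 0.11, against -0.04 over 10416 named genes. The group as a whole therefore had no single direction. The bead interval lay above 0 for 3 member probes and below 0 for 1, and it held 0 for 9. Over all probes detected on at least 1 array, 13.6% had an interval above 0 and 13.3% an interval below 0.

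**Figure D2:**
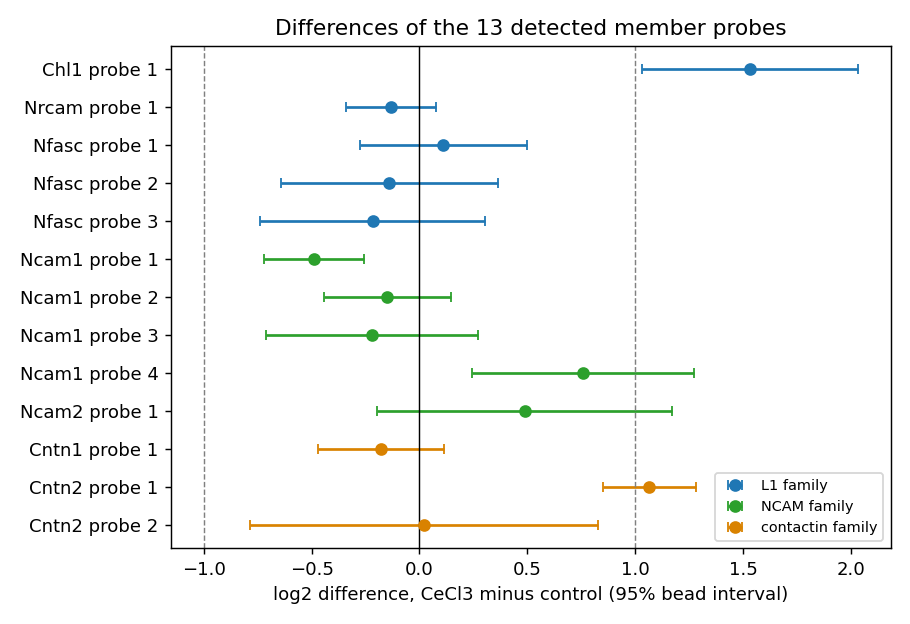
Log2 difference, CeCl3 minus control, of the 13 detected member probes, with 95% bead intervals; dashed lines mark 2-fold. Chl1 probe 1 (1.53) and Cntn2 probe 1 (1.07) lie past the upper line, and Ncam1 probe 1 (-0.49) is the one probe whose interval lies below 0.

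Chl1, the close homolog of L1, is a transmembrane adhesion molecule that guides axons and dendrites and takes part in synapse function in the hippocampus. Its probe 1 (ILMN_2644008) had an intensity of 356 (SE 32.5, 34 beads) on the CeCl3 array, against 115 (SE 19.5, 41 beads) on the control array. It was thus brighter on the CeCl3 array, by several times its bead error. The log2 difference was 1.53 (bead interval 1.03 to 2.03), a 2.89-fold difference. Among 3032 probes detected on both arrays with a mean signal within 0.5 log2 units of it, 8 (0.264%), itself included, had a difference at least as high, and 1.72% were at least 2-fold higher. As the group was selected on this difference, its place among these probes is a description.

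The other 3 Chl1 probes were designed on the same RefSeq transcript and gave no detected signal on either array. Their intensities were -4.83, -12.7 and -4.69 on the CeCl3 array, against 4.95, 7.73 and -4.05 on the control array, where values below 0 lie under the subtracted background. The difference of Chl1 thus rests on 1 probe, and no second probe is bright enough to be set beside it. The named genes nearest to Chl1 probe 1 by distance in log2 signal over the 2 arrays were Pitpnm3 (distance 0.17, difference 1.45), Arpp21 (0.21, 1.43) and Ptpa (0.22, 1.27).

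Cntn2, also called TAG-1, is a contactin of axons and of myelinating glia that helps to hold potassium channels beside the node of Ranvier. Its probe 1 (ILMN_2672943) had an intensity of 2279 (SE 98.0, 41 beads) on the CeCl3 array, against 1084 (SE 69.3, 57 beads) on the control array. The log2 difference was 1.07 (0.85 to 1.28), a 2.09-fold difference. Of 2053 probes detected on both arrays with a mean signal within 0.5 log2 units of it, 4 (0.195%) were at least 2-fold higher, and Cntn2 had the lowest difference of these.

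Cntn2 probe 2, near the detection threshold, did not show that difference. It had an intensity of 53.9 (SE 12.2) on the CeCl3 array, where its detection p-value was 0.00855, and 52.9 (SE 14.3) on the control array, where it was 0.0139. Its log2 difference was 0.02 (-0.79 to 0.83), an interval that leaves out the value of probe 1. Probes 3 and 4 were not detected on either array, with intensities of -0.50 and -1.83 on the CeCl3 array, against 14.6 and 5.39 on the control array. All 4 Cntn2 probes were designed on the same RefSeq transcript.

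**Figure D3:**
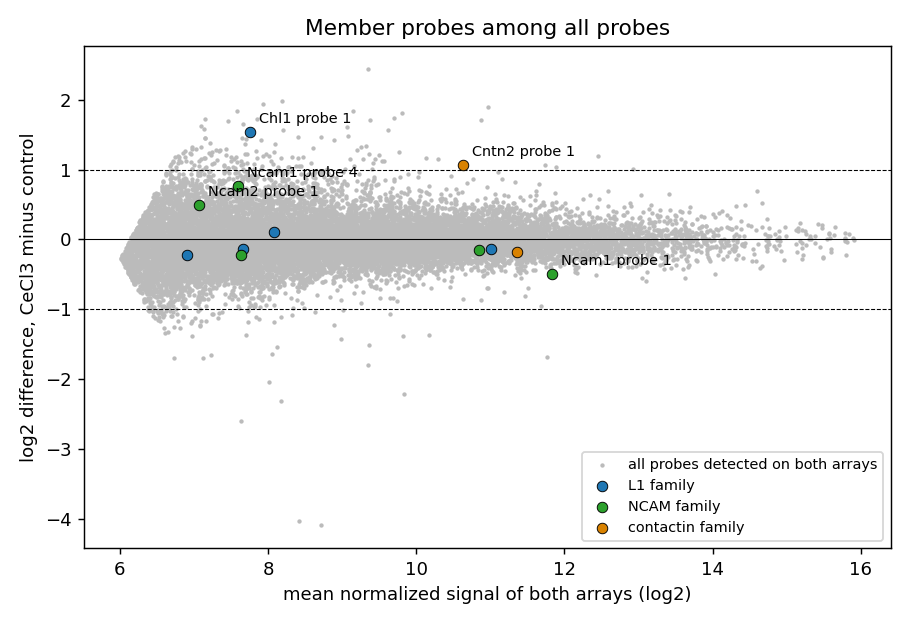
Log2 difference, CeCl3 minus control, against the mean log2 signal of both arrays for the 15780 probes detected on both (grey) and the 12 member probes among them (coloured by family); dashed lines mark 2-fold. Chl1 probe 1 and Cntn2 probe 1 lie at or beyond the upper edge of the dense grey cloud at their signal, and the spread of the cloud narrows towards bright probes.

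Since Chl1 and Cntn2 were the members past 2-fold in the same direction, the 250 bases before their annotated starts are shown, beside those of Nrcam, an L1 family gene that lay near 0. The sequences are from RefSeq (GRCm38.p6), 5′ to 3′ on the strand of the gene, at chr6:103510626-103510875 on the plus strand for Chl1, chr1:132542941-132543190 on the minus strand for Cntn2 and chr12:44328635-44328884 on the plus strand for Nrcam. Capitals mark a GC box.
Chl1: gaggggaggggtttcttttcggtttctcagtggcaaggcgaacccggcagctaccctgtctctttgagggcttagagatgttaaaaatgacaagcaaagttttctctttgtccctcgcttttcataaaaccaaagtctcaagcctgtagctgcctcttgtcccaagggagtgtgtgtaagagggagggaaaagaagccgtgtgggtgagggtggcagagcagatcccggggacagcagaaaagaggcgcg
Cntn2: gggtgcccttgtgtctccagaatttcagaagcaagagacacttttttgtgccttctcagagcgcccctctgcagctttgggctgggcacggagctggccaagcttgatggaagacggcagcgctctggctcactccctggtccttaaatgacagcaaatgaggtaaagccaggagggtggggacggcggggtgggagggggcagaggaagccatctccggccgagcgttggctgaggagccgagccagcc
Nrcam: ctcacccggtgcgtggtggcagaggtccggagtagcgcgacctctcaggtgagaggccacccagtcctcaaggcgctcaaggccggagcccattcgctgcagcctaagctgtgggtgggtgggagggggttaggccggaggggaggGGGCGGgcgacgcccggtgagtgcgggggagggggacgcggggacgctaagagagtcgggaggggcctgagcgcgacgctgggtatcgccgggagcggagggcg

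Both strands of these windows were searched for 6 motifs: the E-box CACGTG, the GC box GGGCGG, the core TGACG of the cyclic AMP response element, the AP-1 site TGANTCA, the TATA box TATAAA and the CCAAT box CCAAT. The letters of these motifs were not in the windows of Chl1 and Cntn2. The Nrcam window held 1 GC box, a motif present in 32.7% of 32851 windows of this length before annotated starts. Of all 11 windows of the members 5 held it, and it was also missing from the 3 windows of Cntn1 and 1 of the 2 windows of Nfasc, so it does not separate the members past 2-fold from the others. The other motifs occurred in 6.02% (E-box), 17.8% (TGACG), 6.75% (AP-1 site), 12.4% (TATA box) and 33.8% (CCAAT box) of those windows. The G and C content was 52.4% for Chl1, 61.2% for Cntn2 and 72.4% for Nrcam, with a median of 52.4% over all windows. Of the 8 genes 7 were matched in the sequence table, all but Ncam1.

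The other detected L1 family genes, Nrcam and Nfasc, lay within 0.22 of 0 on every detected probe. Nrcam, which with Nfasc gathers sodium channels at the axon initial segment and the node, had an intensity of 1954 (SE 82.4) on the CeCl3 array, against 2146 (SE 132) on the control array at probe 1. The log2 difference was -0.13 (-0.34 to 0.08), so the bead interval leaves out a 2-fold difference in either direction. The 3 remaining Nrcam probes were designed on cDNA clones, and none was detected on either array.

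Nfasc encodes neurofascin, whose neuronal and glial forms anchor the initial segment and the junction of axon and myelin. Probe 1 had an intensity of 267 (SE 26.3) on the CeCl3 array, against 247 (SE 25.9) on the control array. Probe 2 had 180.4 (SE 21.2) on the CeCl3 array, against 200.01 (SE 29.6) on the control array, and probe 3 had 98.5 (SE 12.0) on the CeCl3 array, against 116 (SE 19.3) on the control array. The 3 log2 differences were 0.11 (-0.28 to 0.50), -0.14 (-0.64 to 0.36) and -0.22 (-0.74 to 0.30), and all of these intervals held 0. These probes share 1 RefSeq transcript and gave differences of both signs. The other 3 Nfasc probes were not detected at a p-value under 0.01. The nearest to it was probe 4, with detection p-values of 0.0491 on the CeCl3 array, against 0.0919 on the control array.

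L1cam, the X-linked founder of the family, has a single named probe. Its intensity was 13.3 (SE 9.09) on the CeCl3 array, against -4.55 (SE 9.01) on the control array, with a detection p-value of 0.156 for CeCl3 and 0.697 for control. It was not above background on either array, so no difference is given for L1cam.

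Ncam1, the neural cell adhesion molecule that carries most polysialic acid in the brain, had 4 detected probes, and these did not point the same way. Probe 1, on a RefSeq transcript of its own, had an intensity of 3071 (SE 156) on the CeCl3 array, against 4311 (SE 275) on the control array. Its log2 difference was -0.49 (-0.72 to -0.26), a CeCl3 signal 0.712 times that of the control array. Probes 2 and 3, both on another RefSeq transcript, had differences of -0.15 (-0.44 to 0.15) and -0.22 (-0.71 to 0.27). Their intensities were 1735 (SE 90.2) and 170.7 (SE 15.8) on the CeCl3 array, against 1928 (SE 176) and 200.9 (SE 32.3) on the control array. The 3 RefSeq probes of Ncam1 thus all lay below 0, although probe 3 lay at 0.10 in the series matrix as deposited (-0.13 relative to all probes there), and 1 of them had a bead interval that left 0 out.

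Probe 4 of Ncam1, designed on a cDNA clone, lay on the other side. Its intensity was 238 (SE 22.5) on the CeCl3 array, against 136 (SE 23.6) on the control array, with a log2 difference of 0.76 (0.24 to 1.28). The intervals of probes 1 and 4 do not overlap, so the 2 probes disagree by more than their bead error. Probes on cDNA clones that were detected on at least 1 array leaned to the CeCl3 array. Of 875 such probes detected on at least 1 array 71.4% lay above 0 and 17.5% were at least 2-fold higher, against 44.6% and 2.99% of 14407 probes on RefSeq transcripts. That filter also takes in dim probes through the 1 array where they are high. Over all probes the share at least 2-fold higher was 4.51% with it, against 0.894% for probes detected on both arrays. Probe 4 was detected on both arrays, and the shares for such cDNA clone probes were not computed. The transcript that probe 4 measures is not known here.

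Ncam2, the second NCAM gene, known best from olfactory axons, had an intensity of 147 (SE 18.4) on the CeCl3 array, against 101 (SE 24.1) on the control array at probe 1. The log2 difference was 0.49 (-0.20 to 1.17), and the interval held 0 and reached past 2-fold. Probe 2 was not detected on either array.

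Cntn1, a contactin that forms the paranodal junction with Caspr, had 1 probe and a bright signal. Its intensity was 2467 (SE 153) on the CeCl3 array, against 2794 (SE 234) on the control array. The log2 difference was -0.18 (-0.47 to 0.11), an interval that held 0. It does not overlap that of Cntn2 probe 1 and lies within that of Cntn2 probe 2.

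Genes that work with these molecules were taken from 5 lists. Of 139 listed genes 126 had a named probe and 99 a detected one. Each gene was taken by its brightest detected probe, and 91 of the 99 were detected on both arrays. On that probe, 0 of these 91 genes were past 2-fold in either direction, where 0.486% of the 9473 named genes so detected were higher and 0.496% lower by as much. Their bead interval lay above 0 for 9 and below 0 for 10, against 8.59% and 13.9% of those named genes, and their median was -0.05. Of all 99 genes 49 lay above 0, against 44.1% of 10416 named genes, the share to set beside the counts of each list below. Notch1, Dcc, Sdk2 and Bsg were detected on the CeCl3 array alone, and their differences are lower bounds against the lowest detected signal of the control array, from 1.19-fold to 1.31-fold. Kcnq3, also detected there alone, had a bound of 1.46-fold. A probe detected on 1 array alone passed the filter through the array where it is high. Its direction was thus largely fixed by the filter, and all bounds, here and below, leave out bead error. The counts above leave out dimmer probes of the same genes. The second Ptprg probe, for CeCl3 only, was at least 2.38-fold higher, while its brightest probe lay at 0.16 (-0.40 to 0.72). Second probes of Igsf11 and Dscam, likewise, had bounds of 1.46-fold and 1.27-fold higher. For Egfr and Fgfr2, a dimmer probe detected in control only had bounds of 1.35-fold and 1.21-fold lower. The bead interval of that Egfr probe, -1.38 to 0.09, held 0. Some dimmer probes detected on both arrays also differed from the brightest probe of their gene. They lay at -0.89 (-1.42 to -0.36) for Egfr and -0.70 (-1.03 to -0.36) for Hspa8, against 0.14 and -0.02 on the brightest. For Ptprs and Neo1 they lay at 0.84 (0.63 to 1.06) and 0.81 (0.29 to 1.33), against 0.17 and -0.14.

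Contactin relatives and Caspr proteins lay between -0.04 and 0.29 on their brightest probes. All 6 of these probes had bead intervals that held 0, with a median of 0.05. Cntnap1, the paranodal Caspr, lay at 0.29 (-0.41 to 0.99), Cntn5 at 0.15 (-0.33 to 0.63), Cntnap4 at 0.01 (-0.19 to 0.21) and Cntn4 at -0.04 (-0.53 to 0.45). The other 2 Cntnap4 probes lay lower, at -0.11 (-0.35 to 0.13) and -0.47 (-0.82 to -0.11). Cntn3, Cntnap3, Cntnap5a, Cntnap5b and Cntnap5c had no detected probe.

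Of 21 genes of the ankyrin and spectrin scaffold and the axon initial segment, 10 lay above 0 and 11 below, with a median of -0.07. Kcnq3, with detected signal for CeCl3 only, lay highest at 0.74 (-0.18 to 1.66), with a lower bound of 1.46-fold higher. Next came the ankyrin gene Ank1 at 0.32 (0.08 to 0.56) and the sodium channel gene Scn1a at 0.31 (-0.02 to 0.64). At the other end were the potassium channel gene Kcna1, whose channel Cntn2 helps to cluster, at -0.64 (-1.07 to -0.21) and the sodium channel subunit gene Scn2b at -0.48 (-0.74 to -0.23). The second probe of Scn2b lay at -0.37 (-0.69 to -0.05). The third, with detected signal for CeCl3 only, had a bound of 1.10-fold higher, while its bead interval, -0.61 to 1.20, held 0.

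Of 25 extracellular binding partners, 11 lay above 0, 13 below and 1 at 0, with a median of -0.06. The receptor phosphatase gene Ptprd had an intensity of 394 on the CeCl3 array, against 200.4 on the control array, a log2 difference of 0.93 (0.63 to 1.23). The integrin gene Itgav lay at 0.32 (0.04 to 0.60). Its other 2 probes were detected on the CeCl3 array alone, 1 with a bound of 1.42-fold higher and the other with no bound above 1. Their bead intervals, -0.03 to 1.41 and -0.04 to 2.35, held 0. At the other end were the matrix genes Ncan (neurocan, which binds NCAM and L1), at -0.32 (-0.56 to -0.07), and Tnc (tenascin-C), at -0.50 (-0.97 to -0.03). Of 2 further Tnc probes, 1 lay at 0.19 (-0.40 to 0.78) and the other, with detected signal in control only, had a bound of at least 1.25-fold lower.

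Of 18 genes of intracellular signalling, polysialylation and shedding, 11 lay above 0 and 7 below, with a median of 0.09. Gap43, a growth cone protein that acts downstream of NCAM, had an intensity of 951 on the CeCl3 array, against 655 on the control array, a difference of 0.53 (0.19 to 0.86). Dcx, a microtubule protein of young neurons, lay at 0.29 (-0.08 to 0.66), while a second Dcx probe, with detected signal for CeCl3 only, had a lower bound of 1.07-fold higher. Notch1, a receptor that Cntn1 can bind, was at least 1.23-fold higher. The protease gene Bace1, which cleaves CHL1, lay at -0.35 (-0.68 to -0.01), and St8sia2, an enzyme that adds polysialic acid to NCAM, at -0.43 (-0.99 to 0.13).

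Of 29 other immunoglobulin-superfamily adhesion genes, 12 lay above 0 and 17 below, with a median of -0.08, and 23 of the 29 were detected on both arrays. Negr1, a lipid-anchored molecule of the IgLON family, had an intensity of 1115 on the CeCl3 array, against 607 on the control array, a difference of 0.86 (0.58 to 1.15). Its second probe gave 0.81, so both Negr1 probes were higher on the CeCl3 array. The synaptic adhesion gene Cadm1 lay at 0.46 (0.09 to 0.83). Dcc, a netrin receptor, was at least 1.19-fold higher, as was Sdk2, each on a probe from a cDNA clone, and Bsg (basigin) was at least 1.31-fold higher on a RefSeq probe. At the other end, Alcam lay at -0.62 (-1.15 to -0.08) and the glial gene Hepacam at -0.50 (-1.04 to 0.05).

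**Figure D4:**
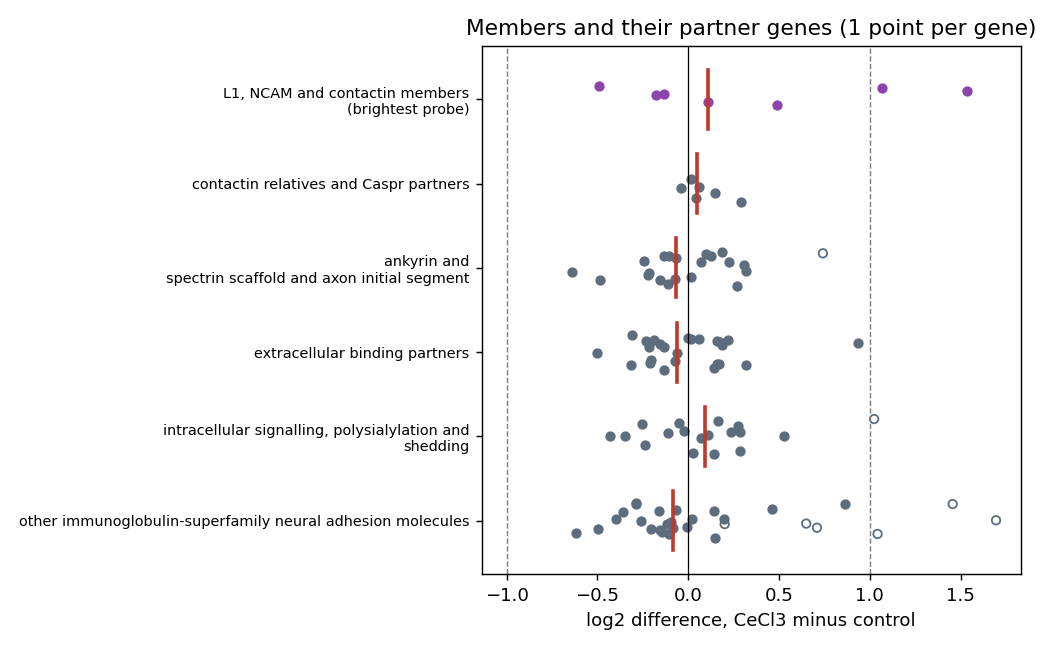
Log2 difference, CeCl3 minus control, of the 7 detected members and of the detected genes of 5 partner lists, 1 point per gene by its brightest detected probe; filled points were detected on both arrays, open points on 1, red bars are medians and dashed lines mark 2-fold. Medians of the partner lists lie between -0.08 and 0.09, and the open points past the upper line, Notch1, Dcc, Sdk2 and Bsg, have lower bounds of 1.19-fold to 1.31-fold.

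Markers of the cells that the tissue can hold were measured beside the members. Of 10416 named genes, each taken by its brightest detected probe, 5810 lay below 0 and 4592 above. The bead interval lay above 0 for 1096 of the 10416 and below 0 for 1543. Of 8 markers of hippocampal excitatory neurons 7 were detected on both arrays, among them Prox1, Wfs1 and C1ql2, and the median of all 8 was 0.00. The bead interval lay above 0 for 2 of them, Zbtb20 at 0.40 (0.09 to 0.71) and Neurod2 at 0.30 (0.06 to 0.54). A second probe lay at 0.53 (0.23 to 0.82) for Zbtb20 and at -0.40 (-0.96 to 0.15) for Neurod2. The eighth, Neurod1, had detected signal in control only, with CeCl3 at least 1.21-fold lower. Neuronal markers had a median of 0.21, with 6 of 9 detected genes above 0, 1 of them (Rbfox3, 0.22) with a bead interval above 0, and a summed intensity of 94998 on the CeCl3 array, against 87404 on the control array. Oligodendrocyte markers had a median of -0.26, with 7 of 8 below 0, 5 of them with an interval below 0, and a sum of 89908 on the CeCl3 array, against 100719 on the control array. Mag (-0.005) and Cnp (-0.02) were among those below 0. Dimmer probes of the oligodendrocyte markers lay on both sides of 0, from -1.23 (Mal, -1.56 to -0.90) to 0.43 (Mobp, 0.09 to 0.77). Oligodendrocytes also express Cntn2 and Nfasc, whose values are given above. Precursor markers had a median of -0.24 (4 of 6 below 0), astrocyte markers -0.03 (5 of 7) and microglial markers -0.02 (4 of 7). Second probes of the microglial markers Csf1r and Aif1 lay at -0.79 (-1.32 to -0.25) and -0.52 (-0.92 to -0.12), against -0.02 and 0.22 on the brightest. The medians were -0.21 for endothelial markers (4 of 5 below 0) and -0.02 for choroid plexus markers (3 of 5). Fewer cells of a type and less RNA per cell cannot be told apart in bulk tissue, and the part of these markers in the members' differences was not tested.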

How the data were processed

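Hippocampal RNA on 2 Illumina bead arrays was compared. Per the file headers, each probe has a mean intensity over its beads, the standard error of that mean, a bead number and a detection p-value, which the authors deposited unadjusted. The submitters' processing notes name BeadStudio without its version or settings. The deposited intensity is background-subtracted (27.1% of values below 0 on each array). The table is called not normalized, but its quantiles differ by at most 0.509%. The series matrix ranks probes identically with unequal quantiles (75th percentiles 178 for CeCl3 and 139 for control) and served as an alternative.

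Intensities were corrected with limma 3.58.1 in R 4.3.3 (normexp from detection p-values, offset 16), quantile normalized and put on the log2 scale. The steps were tested on simulated data. All changed probes there were brighter than Chl1 probe 1 on the control array, so differences at dimmer probes were not covered. Bead errors were carried to the log2 scale, and intervals are 1.96 of them. Names came from the platform annotation (34885 probes with 1 symbol, 18 with several, 10378 unnamed), and 34807 matched RefSeq by gene number. Partner genes named were, by brightest detected probe, the 2 highest and 2 lowest of each list detected on both arrays, and any past 2-fold. A few others are given for a dimmer probe or for a bound. The members and lists were chosen with earlier results of these data known. For partners detected on 1 array alone, the bound leaves out bead error.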

Additional observations from a re-analysis of the deposited data

How the results depend on the processing

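Chl1 probe 1 and Cntn2 probe 1 stayed at least 2-fold higher under all 6 other ways of making the signals, with log2 differences of 1.32 to 2.20 for Chl1 and 1.04 to 1.40 for Cntn2. In the series matrix as deposited, which moved the median of all detected probes to 0.23, the values were 2.20 and 1.40 (1.97 and 1.17 relative to that median), 4 member probes were past 2-fold higher (with Ncam1 probe 4 and Ncam2 probe 1), and the median of the member probes was 0.19. It lay below the median of all probes there too. With the brightest probe of each gene the median of the members was 0.11 in place of -0.13. It was 0.01 with no detection filter and -0.03 with the detected probes of a gene averaged, so its sign depends on the choice. Averaging probes also turned 3 of the 5 list medians, to 0.08 (extracellular partners), -0.06 (intracellular signalling) and 0.02 (other immunoglobulin-superfamily genes). The share of all probes at least 2-fold higher or lower, 4.51% and 2.14%, was 1.13% and 0.376% with an offset of 50, 6.40% and 3.40% with an offset of 0, 10.4% and 1.70% in the series matrix as deposited, 6.26% and 3.09% in that matrix after quantile normalization, and 2.01% and 1.40% with no filter, while 2 member probes higher and 0 lower stood in all of these but the matrix as deposited. Differences of the other member probes stayed within their bead intervals. No member probe with a bead interval that left out 0 changed sign. No paired analysis was possible because each group has 1 array. Bead error is large for dim probes, so differences under 2-fold could not be resolved at probes near the detection threshold.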
